A study of Arabidopsis thaliana with 4 samples.

Results

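The genes described here are 4 sugar transporter genes of the SWEET family (SWEET13, SWEET11, SAG29 and SWEET4) and APL3, a gene of starch synthesis, measured in Arabidopsis thaliana rosettes. SAG29 is the SWEET15 gene. They were picked out by name, as the probe sets that the platform annotation gives to that gene alone, and each of the 5 genes had 1 such probe set. They are 5 of 13356 genes with a probe set of their own here, of which 11276 were tested. The names were chosen with their difference between DEX and mock plants already known. That difference is therefore given below as a description, with no test.

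SWEET proteins let sugars pass across a membrane down their concentration gradient. In leaves, SWEET carriers of the plasma membrane release sucrose from the phloem parenchyma, from where it is loaded into the phloem for export to sink organs. Carbon that stays in the leaf during the day is stored in chloroplasts as starch, and ADP-glucose pyrophosphorylase, an enzyme of small and large subunits, makes the ADP-glucose from which starch is built. APL3 encodes a large subunit, known as a form of sink tissues whose gene responds to sugar supply.

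The DEX group was 2 rosette samples from transgenic plants aged 46 days, of background C24 and with an inducible construct to overexpress ORS1, a NAC transcription factor known as a promoter of leaf senescence, sprayed with 30 µM dexamethasone (DEX). The mock group was 2 rosette samples from plants of the same age, background and construct, sprayed with 0.05% ethanol. Whole rosettes were taken 5 h after spraying in both groups, from plants grown on soil under a 16 h day at 20 °C by day and 16 °C by night. Each sample was hybridised to 1 Affymetrix ATH1 array. All 4 samples carry the construct, and an effect of DEX itself cannot be told apart from one of ORS1. Ethanol is stated for the mock spray alone, so a difference in solvent between the groups cannot be told apart either. The labels give neither the promoter of the construct, nor the number of lines, nor the plants behind a sample, and they call the samples biological replicates. The level of ORS1 was not analysed here.

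All values are log2 expression values from GCRMA, so that a difference of 1 stands for a 2-fold difference. Array medians ran from 6.51 to 6.55. Mesophyll markers gave strong signal on every array: LHCB4.1, a light-harvesting protein, measured 13.33 and 13.35 on the DEX arrays and 13.42 and 13.38 on the mock arrays. Of 4 tested mesophyll markers 0 passed the test used below, which 0.448% of all probe sets passed. In whole rosettes, fewer cells of a type and less RNA per cell cannot be told apart. None of the 6 vascular markers listed for this work had a probe set used here, so the tissue share that holds the SWEET transporters of the veins was not measured.

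SWEET13, SWEET4 and APL3 were each more than 2-fold lower in DEX rosettes than in mock rosettes, SWEET11 was 1.54-fold lower, and SAG29 was 1.15-fold higher. The DEX means of SWEET13 (5.41), SWEET4 (5.85) and APL3 (5.23) lay below the array medians. They were close to or below the means of the root marker EXPA7 (5.84 in DEX and 5.97 in mock rosettes). SWEET11 was far brighter, at 10.29 in DEX rosettes. How far a floor of the signal limits the size of the larger falls was not tested. On all 5 probe sets the DEX arrays lay on one side of the mock arrays with no overlap. Over the whole array, 38.0% of the 19883 probe sets tested showed no overlap in one direction or the other. Lower values without overlap were seen in 19.8% of probe sets, and higher ones in 18.1%.

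SWEET13 encodes a plasma membrane sucrose carrier. It measured 5.55 and 5.27 on the DEX arrays, against 6.99 and 6.95 on the mock arrays. Both DEX values were low and both mock values were high, with 1.40 log2 units between the nearest arrays of the groups. The means were 5.41 ± 0.19 in DEX rosettes and 6.97 ± 0.029 in mock rosettes (SD, n = 2 each), which is a change of -1.56. Taken array by array, the 4 possible DEX-minus-mock differences of SWEET13 ran from -1.72 to -1.40. It held rank 19 from the bottom among the changes of all probe sets tested. Only 0.156% of probe sets had their groups 1 log2 unit or more apart with DEX lower, and of the genes described here SWEET13 was the one to do so.

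SWEET11 encodes a sucrose carrier of the phloem parenchyma plasma membrane. It measured 10.31 and 10.28 on the DEX arrays, against 10.90 and 10.94 on the mock arrays. The arrays of each pair lay close together, and the groups were 0.59 log2 units apart at their nearest. Mean values were 10.29 ± 0.023 in DEX rosettes and 10.92 ± 0.025 in mock rosettes (SD, n = 2 each), a change of -0.62. The 4 array-by-array differences stayed between -0.66 and -0.59, the narrowest range of the 5 genes. With DEX, 64.9% of the mock signal of SWEET11 remained on the linear scale, and 1.30% of all probe sets had a lower change.

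SAG29 also encodes a plasma membrane SWEET carrier and is named for its association with senescence. It measured 6.67 and 6.38 on the DEX arrays, against 6.30 and 6.35 on the mock arrays. DEX replicate 1 was the high sample, and DEX replicate 2 exceeded the higher mock array by 0.033 log2 units. The means were 6.53 ± 0.20 in DEX rosettes and 6.33 ± 0.032 in mock rosettes (SD, n = 2 each). The change of 0.20 was no larger than the SD of the DEX pair, and without DEX replicate 1 it was 0.055. Of all probe sets tested, 17.5% had a higher change than SAG29.

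SWEET4 encodes a carrier of another branch of the family, known mainly for hexoses. It measured 5.69 and 6.01 on the DEX arrays, against 6.99 and 7.06 on the mock arrays. Both DEX values lay below both mock values, and the nearest arrays were 0.98 log2 units apart. Means of 5.85 ± 0.23 in DEX rosettes and 7.02 ± 0.049 in mock rosettes (SD, n = 2 each) gave a change of -1.17, or 2.25-fold lower. The array-by-array differences of SWEET4 ran from -1.37 to -0.98, and its change held rank 39 from the bottom.

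APL3 measured 5.14 and 5.32 on the DEX arrays, against 6.75 and 6.24 on the mock arrays. The DEX pair was low and even, whereas the mock pair was uneven, with replicate 1 above replicate 2 by 0.50. The means were 5.23 ± 0.13 in DEX rosettes and 6.49 ± 0.36 in mock rosettes (SD, n = 2 each), a change of -1.26, or 2.39-fold lower. Its array-by-array differences ran from -1.60 to -0.92, the widest range of the 5 genes, and its change held rank 30 from the bottom.

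**Figure D1:**
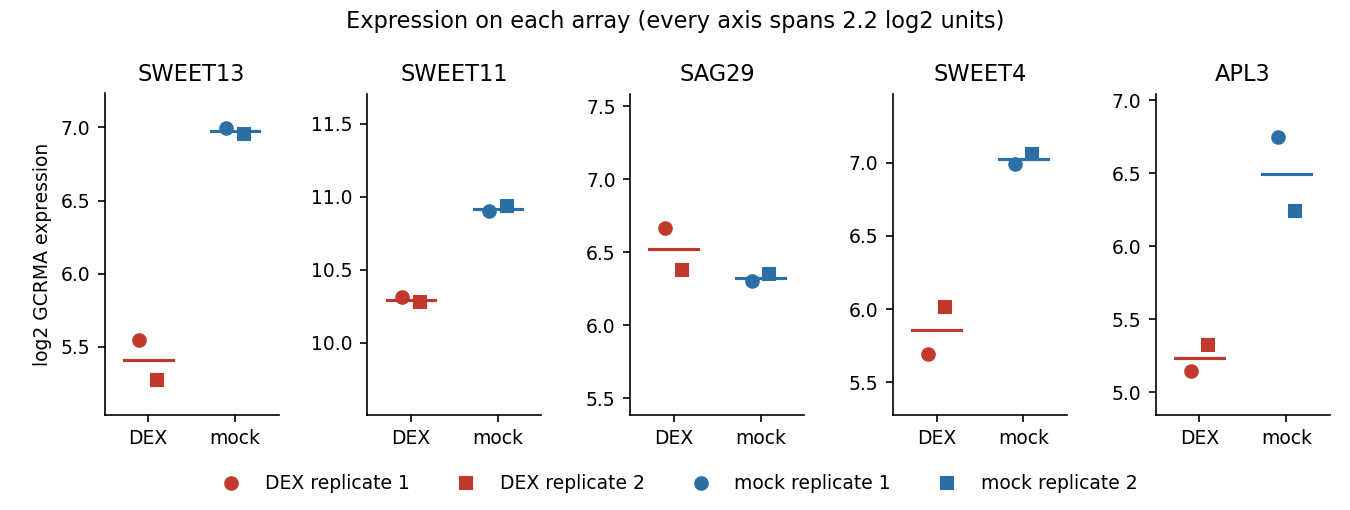
Log2 GCRMA expression of SWEET13, SWEET11, SAG29, SWEET4 and APL3 on each array, DEX left and mock right, with the mean of each pair as a line and an axis of the same length in every panel. SWEET13, SWEET11, SWEET4 and APL3 sit lower on both DEX arrays, and SAG29 differs by 0.20 between the means.

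**Figure D2:**
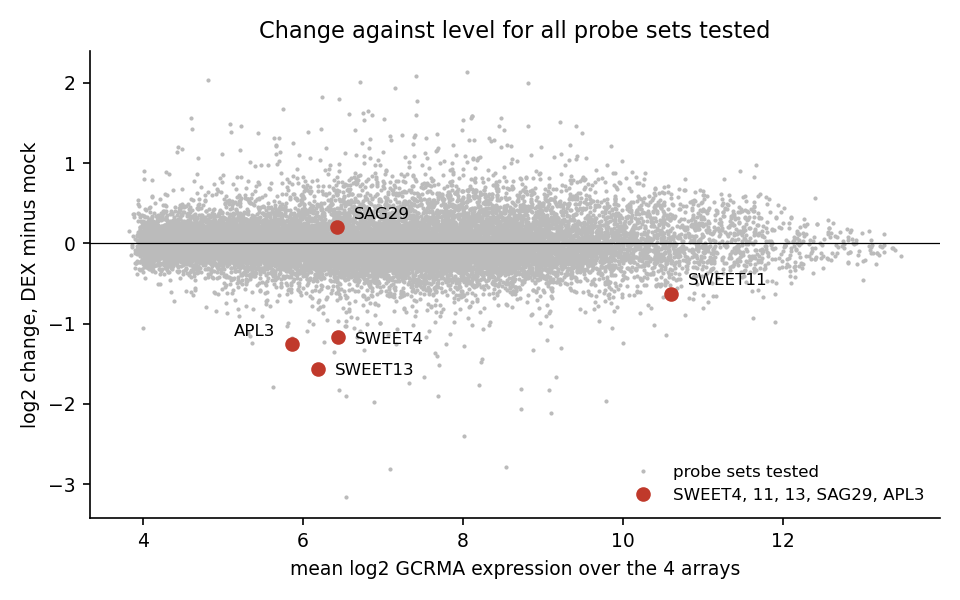
Change between DEX and mock (log2, vertical) against the mean of the 4 arrays (log2, horizontal) for the 19883 probe sets tested in grey and the 5 genes in red. SWEET13, APL3 and SWEET4 lie among the lowest changes, SWEET11 at the lower edge of the cloud, and SAG29 within it.

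Ordered by their change, SWEET13 (-1.56) came first, followed by APL3 (-1.26), SWEET4 (-1.17), SWEET11 (-0.62) and SAG29 (0.20). The array-by-array range of APL3 overlapped those of SWEET13 and SWEET4, so its place between them is not separated by the spread between arrays. The ranges of SWEET13 and SWEET4 ended at -1.40 and began at -1.37 and so did not quite meet. The range of SWEET11 lay apart from all 3, and so did that of SAG29. Each range is built from 2 DEX and 2 mock values, so its 4 differences are not independent. These ranges are a description and do not settle whether SWEET13 and SWEET4 differ in the size of their change. The pairs also differed in which array was the higher: SWEET13 and SAG29 were higher on DEX replicate 1 than on DEX replicate 2, by 0.28 and 0.29, whereas SWEET4 was lower there by 0.32 and APL3 by 0.18.

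The unevenness of the mock pair was shared by many long genes. Across the 11348 tested probe sets with a gene span, mock replicate 1 exceeded mock replicate 2 by more the longer the gene on the log2 scale (Pearson r = 0.544 across genes, which are not independent replicates), while that of the DEX arrays hardly did (r = 0.015). With the genes in 5 equal classes by span, the longest class held those of 3396 bases or more. There the median difference between the mock arrays was 0.27, and the median DEX-minus-mock change was -0.083. APL3 spans 3922 bases and belongs to that class. The 4 SWEET genes span 1905 (SWEET4) to 2367 bases (SWEET11), in classes 2 and 3 from the shortest, and their mock arrays differed by at most 0.069. With the trend over gene span removed from every array, APL3 was at -1.17, SWEET13 at -1.55, SWEET4 at -1.21, SWEET11 at -0.60 and SAG29 at 0.22. After that removal mock replicate 1 still exceeded mock replicate 2 by 0.29 for APL3, beside 0.50 before it.

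**Figure D3:**
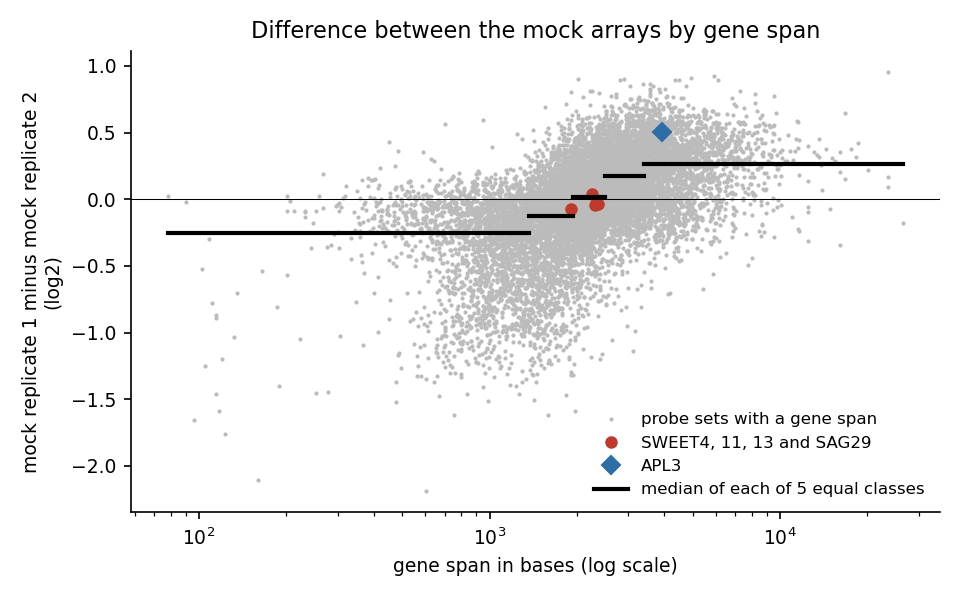
Difference between mock replicate 1 and mock replicate 2 (log2) against gene span in bases (log scale), with black bars at the median of each of 5 equal classes of genes. APL3 (blue) lies with the long genes that are higher on mock replicate 1, and the 4 SWEET genes (red) lie near 0.

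The 4 SWEET genes described above were given no test, and none of the rest that were tested passed. Of the 17 SWEET genes of Arabidopsis, 16 had a probe set used here, all but SWEET12. Apart from the 4 described above, 11 were tested and 0 rose or fell at an adjusted p under 0.05 (limma with Benjamini-Hochberg adjustment over all probe sets; 0.448% of all probe sets passed). At an unadjusted p under 0.05 there was 1, SWEET2, a level that 8.78% of all probe sets reached. Their median change was 0.057, beside -0.012 over all probe sets tested, and their changes ran from -0.21 (SWEET5, listed as AtVEX1) to 0.41 (SWEET2). SWEET13, SWEET4 and SWEET11 lay below that range. This comparison is a description, because those 3 genes were named for their change. It is also limited by signal level. SWEET3, SWEET5, SWEET6, SWEET8, SWEET9, SWEET10 and SWEET14 had group means from 4.16 (SWEET5, DEX) to 5.66 (SWEET14, mock), below the array medians. A fall is harder to see in such dim genes. The means of SWEET1, SWEET2, SWEET16 and SWEET17 ran from 6.17 (SWEET2, mock) to 8.95 (SWEET1, DEX).

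Within clade III, the branch of sucrose carriers, SWEET13 and SWEET11 were lower in DEX rosettes and SAG29 was slightly higher, while SWEET9, SWEET10 and SWEET14 had changes between -0.097 and 0.21. SWEET14, a close relative of SWEET13, measured 5.47 and 5.65 on the DEX arrays and 5.69 and 5.63 on the mock arrays, and its groups overlapped. SWEET9, known from nectaries, measured 5.61 and 5.62 on the DEX arrays and 5.36 and 5.47 on the mock arrays, a difference that did not pass (limma adjusted p = 0.731). SWEET10, the direct neighbour of SWEET13 on the chromosome, had a change of 0.21 ± 0.17 (SE) with overlapping groups.

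Clade II holds SWEET4 and 4 other genes, several of them known from pollen. SWEET5, SWEET6 and SWEET8 had changes between -0.21 and 0.057, and SWEET7 stayed under the filter level of 4 on every array and was not tested. In clade I, SWEET2, a carrier of the vacuolar membrane, measured 6.53 and 6.61 on the DEX arrays, against 6.15 and 6.19 on the mock arrays. Both DEX arrays were higher, yet the change of 0.41 ± 0.15 (SE) did not pass (limma adjusted p = 0.435). SWEET1 and SWEET3 had changes of 0.064 and -0.081. The vacuolar carriers SWEET16 and SWEET17 of clade IV had changes of 0.037 and 0.13.

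**Figure D4:**
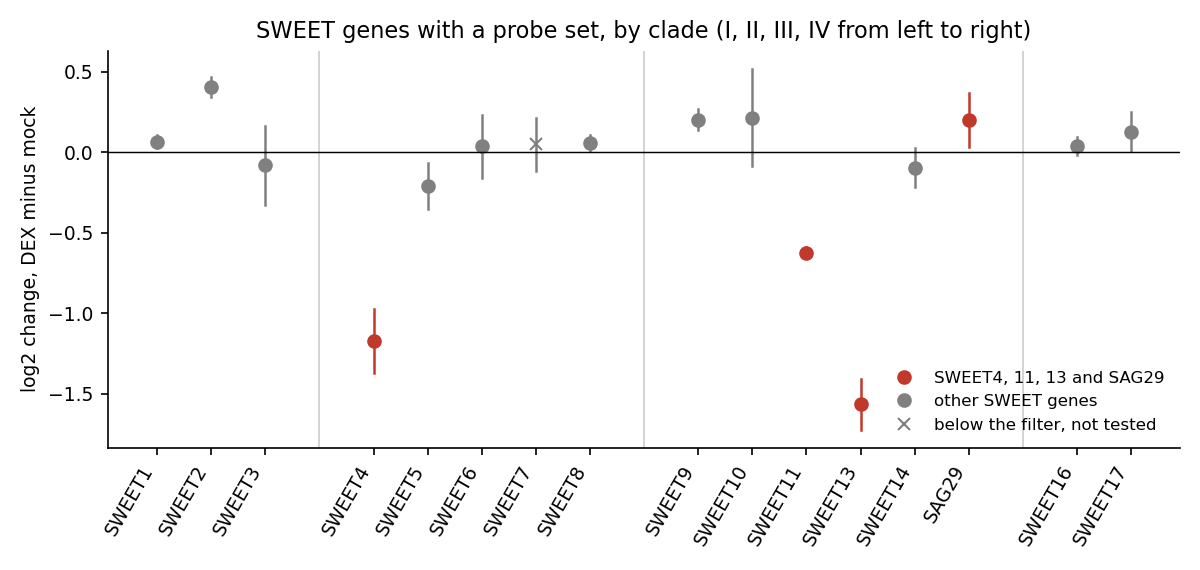
Log2 change of the 16 SWEET genes with a probe set, grouped by clade, with points at the difference of the group means and lines over the 4 array-by-array differences. SWEET13, SWEET4 and SWEET11 (red) lie below 0 with their whole line, SAG29 (red) lies at 0.20, and the other SWEET genes (grey) lie between -0.21 and 0.41.

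Other genes of starch metabolism had few probe sets used here. Of 5 other subunit genes of ADP-glucose pyrophosphorylase, APL4, a further large subunit, was tested. It measured 5.82 and 5.66 on the DEX arrays and 6.29 and 5.67 on the mock arrays. Mock replicate 1 was the high sample, and the change of -0.24 ± 0.21 (SE) did not pass (limma adjusted p = 0.807). Without mock replicate 1 it was 0.066.

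Of the 14 genes listed for starch synthesis 2 were tested, and of the 24 for starch breakdown 3. Among these 0 passed in either direction, where 0.448% of all probe sets did. The branching enzyme gene SBE2.2 had a change of -0.44 ± 0.25 (SE), the phosphoglucan, water dikinase gene PWD one of -0.38 ± 0.22 and DPE1, the plastid disproportionating enzyme, one of -0.49 ± 0.24. The alpha-amylase gene AMY1 (0.053) and AT5G39790 (0.046) lay near 0. SBE2.2, PWD and DPE1 were higher on mock replicate 1 than on mock replicate 2, by 0.57, 0.50 and 0.57, and they span 5941, 6254 and 3707 bases. Without mock replicate 1 their changes were -0.16, -0.13 and -0.20. Without mock replicate 2 they were -0.72, -0.63 and -0.77.

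Of 28 listed carriers of hexoses, polyols and the tonoplast 9 were tested and 0 passed (0.448% of all probe sets did), with a median change of -0.035. TMT2, a carrier that brings sugars into the vacuole, had the lowest change of these. It measured 7.99 and 8.24 on the DEX arrays, against 8.85 and 8.61 on the mock arrays. Its change of -0.62 ± 0.20 (SE) did not pass (limma adjusted p = 0.383). Without mock replicate 2 the change of TMT2 was -0.74. With all arrays, AT5G61520 followed at -0.39 ± 0.20, and SFP1 (0.17) and AT1G34580 (0.17) had the highest changes. TMT1 and TMT3 were at -0.095 and 0.023. None of the 9 listed sucrose carriers of the SUC family had a probe set used here.

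Of 26 listed genes of sucrose synthesis and cleavage 4 were tested and 0 passed (0.448% of all probe sets did). ATSPS4F, a sucrose phosphate synthase, had a change of -0.32 ± 0.22 (SE), AT2G35840 one of -0.25, AT1G62660 one of 0.27 and cwINV6 one of 0.037. All 4 were higher on mock replicate 1 than on mock replicate 2. Of these, ATSPS4F and AT2G35840 passed without mock replicate 2 (limma adjusted p = 0.0496 and 0.0355), where 6.98% of all probe sets passed as lower. BZIP53, a transcription factor of sugar and amino acid responses, was the 1 tested gene of 25 for trehalose and sugar signalling and had a change of -0.066 ± 0.27. The 8 dark-inducible genes had no probe set used here.

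Genes of anthocyanin synthesis, a pathway that sugars induce, had 3 of 12 members tested. DFR, which reduces dihydroflavonols, measured 6.50 and 6.48 on the DEX arrays, against 7.80 and 7.47 on the mock arrays. Both DEX values were low, and DFR fell by 1.15 ± 0.18 (SE; limma adjusted p = 0.0449). The call was lost with no filter, without an intensity trend, with an unmoderated variance and without either DEX replicate (limma adjusted p = 0.0629, 0.0752, 0.73, 0.0996 and 0.0897). UF3GT, a glycosyltransferase of anthocyanins, averaged 6.51 ± 0.023 in DEX rosettes and 7.09 ± 0.12 in mock rosettes (SD, n = 2 each). Its change of -0.58 ± 0.16 (SE) did not pass (limma adjusted p = 0.252). Without mock replicate 2 the change of UF3GT was -0.66. With all arrays, AT5MAT, an acyltransferase, was at -0.26.

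Counted over the 10 lists, 34 genes other than the 5 described were tested, of which 0 rose, 1 fell (DFR) and 33 did not pass. At an unadjusted p under 0.05 there were 4 of the 34, where 8.78% of all probe sets reached that level. Their median change was -0.050, beside -0.012 over all probe sets.

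**Figure D5:**
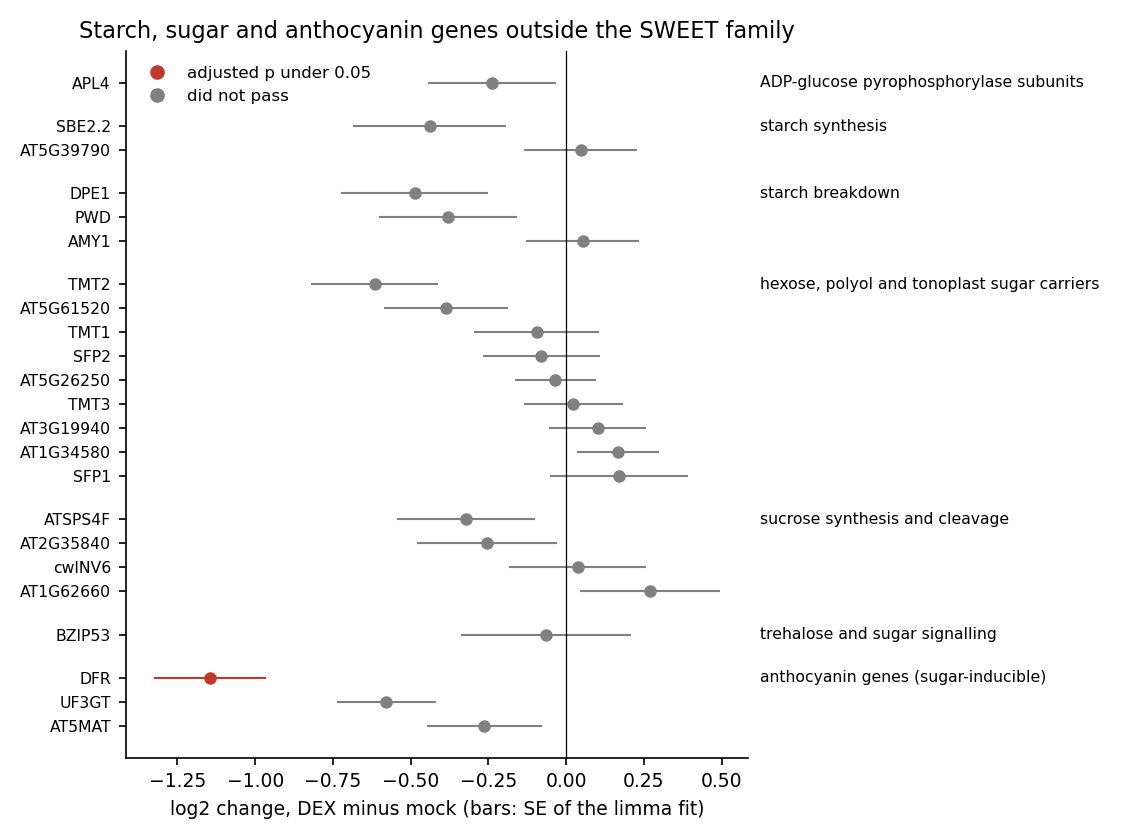
Log2 change of tested starch, sugar and anthocyanin genes outside the SWEET family (horizontal, bars are the SE of the limma fit), grouped by list. DFR at -1.15 is the gene that passed, and the others lie between -0.62 and 0.27.

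The genes whose 4 array values ran most like those of each described gene were found among 11271 other genes by the Euclidean distance between values centred on their mean. Because the distance uses the DEX and mock arrays together, nearness includes a like change and is a description. Nearest to SWEET13 were AT3G28220, AT1G54020 and AT4G01390, at distances of 0.19 to 0.30 log2 units and with changes of -1.74, -1.40 and -1.67. Nearest to SWEET11 was BETA-VPE, a vacuolar processing enzyme, at 0.025. It measured 5.57 and 5.53 on the DEX arrays and 6.13 and 6.17 on the mock arrays, so that its 4 values followed those of SWEET11 almost in parallel. AT4G24350 and AT5G19430 came next for SWEET11, at 0.063 and 0.098.

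Nearest to SWEET4 were AT4G14090, AT4G35750 and iqd33, an IQ-domain gene, at distances of 0.12 to 0.20. AT4G14090 measured 5.85 and 6.34 on the DEX arrays and 7.27 and 7.27 on the mock arrays, with the same low DEX replicate 1 as SWEET4. Nearest to APL3 were scpl48, a serine carboxypeptidase-like gene, ALN, the allantoinase of purine breakdown, and DFR, at distances of 0.15, 0.20 and 0.22. In each of these, as in APL3, mock replicate 1 was the highest of the 4 arrays. Nearest to SAG29 were AT1G18940, AT2G06230 (a pseudogene) and AT5G52810, at distances of 0.020 to 0.037 and with changes of 0.18 to 0.23, none of which passed (limma adjusted p = 0.712 to 0.75).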

How the data were processed

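Total RNA of whole rosettes was measured on 4 ATH1 arrays, 2 per group. The deposited values are log2 expression values, 1 per probe set and array. The authors made them with GCRMA, per the submitters' processing notes, whose version and settings the labels do not state; the scale was read from the values. GCRMA corrects background by probe sequence and shrinks differences between dim probe sets. Nothing further was applied.

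Of 22810 probe sets, 64 controls were left out, and 2863 with a log2 value of at least 4 on fewer than 2 arrays were dropped, which left 19883. These were fitted in R 4.3.3 with limma 3.58.1 (lmFit, eBayes with an intensity trend, DEX against mock, two-sided), with Benjamini-Hochberg adjustment over all 19883. A gene is said to rise or fall at an adjusted p under 0.05. With 2 residual degrees of freedom, SEs and p-values rest largely on the spread pooled over probe sets, and precision is limited by the number of arrays. The test was checked on simulated data with independent noise drawn from limma's own variance model. That check does not cover deviations that genes of an array share, such as the trend over gene span.

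Gene names came from the platform annotation (13513 probe sets with 1 gene, 503 with several, 8730 unlisted here) and were updated through RefSeq (TAIR10.1), which also gave gene spans; 13436 of the 13513 matched. The members and lists were chosen with earlier results of these data known. Named were all 5 genes, the called genes and up to 4 others of each list by size of change, and the 3 nearest profiles of each of the 5; smaller changes were added for completeness after their values were seen. Alternatives covered filter, normalization, variance model, threshold, replicate block, cross-hybridising probe sets, gene span and leaving out each array. Promoter and protein sequences were not analysed here.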

Additional observations from a re-analysis of the deposited data

How the results depend on the processing

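Over 14 alternative settings the log2 changes of SWEET13, SWEET11, SAG29, SWEET4 and APL3 kept their direction in all 70 values. SWEET11 moved by more than the spread between its replicates in 1 setting, to -0.60 with the gene span trend removed. Leaving out 1 array gave -1.70 to -1.42 for SWEET13, -0.64 to -0.61 for SWEET11, 0.055 to 0.34 for SAG29, -1.33 to -1.01 for SWEET4 and -1.51 to -1.01 for APL3. Groups that do not overlap fix these directions when an array is left out, the shift is then below the spread of the pair by construction, and filter, variance model, threshold and block leave the change itself as it was. Over the array, against 49 rises and 40 falls, there were 27 and 24 without an intensity trend, 80 rises with robust eBayes, 107 rises and 81 falls with the threshold at 0.1, and 0 of either when limma's variance was left unmoderated (1297 at an unadjusted p under 0.05). With single arrays left out, rises numbered 112 to 1803 and falls 50 to 1388, most of them without mock replicate 2. Against 1 fall among the 34 tested list genes, there were 0 with no filter, without an intensity trend and with an unmoderated variance, and 0 to 8 falls and 0 rises with 1 array left out, 8 of them without mock replicate 2. The replicate numbers are not stated to mark a shared batch, and same-numbered arrays deviated together weakly (r = 0.108 across probe sets). The 25S rRNA control followed the number. It measured 7.38 on DEX and 7.35 on mock replicate 1, and 9.64 on DEX and 8.86 on mock replicate 2. The 5S rRNA control measured 3.69 and 3.73 on the DEX arrays and 3.72 and 4.05 on the mock arrays. What part either control has in these values was not tested. The replicate block gave 438 rises and 237 falls over the array and left the list genes at 1 fall. The cause of these shifts was not tested, except that with 1 array left out only the other pair gives the spread.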

Other observations

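Genes directly beside the described genes on the chromosome, looked up after the values were seen, had a probe set used here in 4 of 10 places. Beside SWEET4, AT3G28020 measured 6.35 and 6.24 on the DEX arrays and 6.12 and 6.38 on the mock arrays, with overlapping groups. Beside APL3, AT4G39200 measured 11.17 and 11.03 on the DEX arrays and 9.87 and 10.99 on the mock arrays, a change of 0.67 ± 0.33 (SE) that did not pass (limma adjusted p = 0.632). On its other side ATRER1A had a change of 0.19 ± 0.21 (SE) with overlapping groups. The remaining place is that of SWEET10 beside SWEET13.

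Among markers of other tissues, FMA, a regulator of guard cell fate, measured 5.97 and 6.26 on the DEX arrays and 6.78 and 6.39 on the mock arrays, a change of -0.47 ± 0.19 (SE) that did not pass (limma adjusted p = 0.511). The root marker EXPA7 measured 5.72 and 5.95 on the DEX arrays and 5.98 and 5.96 on the mock arrays. FMA was the 1 tested gene of 6 for guard cell and epidermis, EXPA7 the 1 of 4 for root, and SWEET9 the 1 of 6 for flower and nectary. What part tissue composition has in the values of the SWEET genes was not tested.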
